A study of Caenorhabditis elegans with 2 samples.

Results

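The genes described here are the protein-coding genes of Caenorhabditis elegans whose name is col followed by a number, chosen by that name alone from the WBcel235 annotation. There are 156 of them among 19973 coding genes on the nuclear chromosomes, with 41 on chromosome IV, 31 on V, 27 on X, 24 on II, 21 on I and 12 on III. The measurement was where NFYA-1-GFP, a subunit of the trimeric NF-Y factor fused at its C terminus to GFP and FLAG, was found on the genome. It was made by chromatin immunoprecipitation and sequencing in 1 group: late embryos, taken as whole hermaphrodite animals of strain OP404, which carries unc-119(tm4063) III and the transgene wgIs404, in 2 biological replicates. Both replicates share the tagged protein and the strain, no second condition was compared, and chromatin from the epidermis was not separated from that of other tissues.

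Nematode cuticle collagens are short secreted proteins of glycine-rich triple-helical repeats that the epidermis makes, hydroxylates, cleaves and crosslinks into the cuticle. The late embryo builds its first cuticle before hatching, and a further set of collagens is made at each moult, with individual genes switched on in successive waves. NF-Y binds the CCAAT box, a short element found upstream of many animal genes. Not every gene of this name is a cuticle collagen: col-99 encodes a transmembrane collagen.

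A promoter was taken as 500 bp upstream to 100 bp downstream of any annotated transcript start, and a gene with a region's summit there is called bound in that list. The authors' reproducibility analysis left 4098 regions, called the peak list here, and they are the 4098 regions of highest signal value among the 15515 of the pooled list, which was made from both replicates and also holds background regions. The lists of replicate 1 and replicate 2 hold 21476 and 28596 regions. A signal value is the authors' score for a region, no source used here states its scale, and it is compared only within a list. Read depth is unknown, so the precision is that of counts of genes, given as 95% Wilson intervals that cover counting error only.

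Only 4 of the 156 col genes were bound in the peak list, namely col-38, col-2, col-71 and col-107, against 11.2% of all coding genes. The share was 2.56% (interval 1.0 to 6.41). In the pooled list 12 of 156 were bound (7.69%, interval 4.45 to 13.0), against 23.7% of all coding genes. Replicate 1 alone gave 25 col genes (16%, interval 11.1 to 22.6), against 26.5% of all coding genes, and replicate 2 alone gave 27 (17.3%, interval 12.2 to 24), against 31.1%. In each of the 4 lists the interval for col genes ended below the share over all coding genes. The 4 lists are not independent, since all come from the same 2 replicates, and the intervals treat neighbouring col genes as independent. No test of these differences was made, because the genes were chosen with results on them known.

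**Figure D1:**
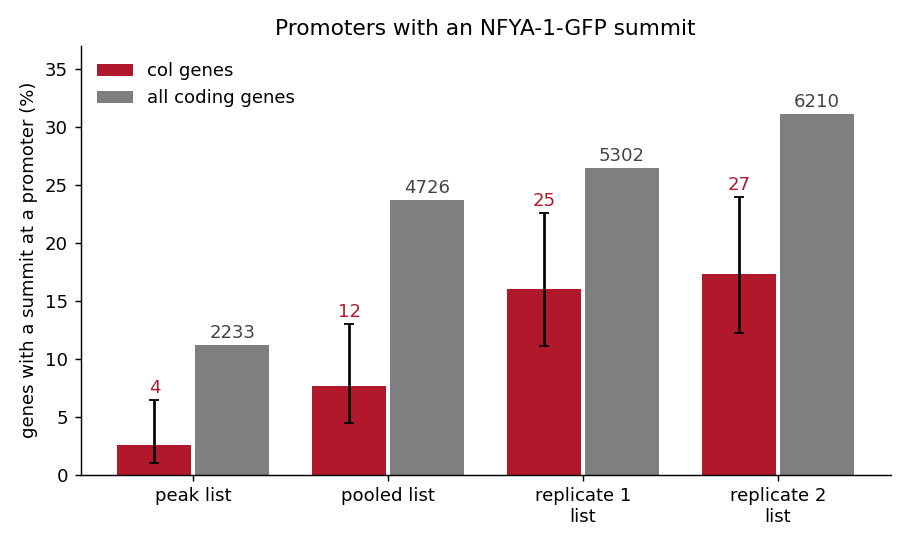
Percentage of col genes (red, n = 156, with 95% Wilson intervals) and of all coding genes (grey, n = 19973) with a summit at a promoter, in each of the 4 lists, with the number of bound genes above each bar. The red bars stand at 2.56, 7.69, 16 and 17.3% and each lies below the grey bar beside it.

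The 101-bp windows around the summits of the 4 bound genes, and of 3 of the 8 genes whose region stayed below the reproducibility threshold, are printed to show what sequence the signal sat on. Each is from RefSeq's copy of WBcel235, reads 5′ to 3′ in the direction of the col gene with the summit at its middle, and has CCAAT and TATAAA, on either strand, in capitals. The windows are chrII:8569474-8569574 for col-38, chrIV:10085820-10085920 for col-2 and chrII:3502768-3502868 for col-71, all on the minus strand, and chrIV:1548552-1548652 for col-107 on the plus strand. Below the threshold they are chrIV:7152627-7152727 for col-113 and chrIV:763682-763782 for col-103, on the minus strand, and chrX:11199316-11199416 for col-178 on the plus strand. These 3 are examples and not the 3 strongest of the 8, and each holds CCAAT or TATAAA. Over all 8, CCAAT stood within 50 bp of the summit at 4.
col-38: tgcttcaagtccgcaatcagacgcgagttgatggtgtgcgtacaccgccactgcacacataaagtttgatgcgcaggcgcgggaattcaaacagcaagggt
col-2: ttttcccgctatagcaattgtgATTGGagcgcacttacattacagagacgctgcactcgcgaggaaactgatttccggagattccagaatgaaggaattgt
col-71: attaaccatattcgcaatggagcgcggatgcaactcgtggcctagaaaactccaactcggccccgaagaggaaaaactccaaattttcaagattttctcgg
col-107: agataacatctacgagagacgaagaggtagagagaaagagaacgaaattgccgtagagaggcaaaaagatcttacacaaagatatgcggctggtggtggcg
col-113: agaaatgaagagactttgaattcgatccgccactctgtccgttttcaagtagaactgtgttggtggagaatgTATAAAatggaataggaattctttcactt
col-103: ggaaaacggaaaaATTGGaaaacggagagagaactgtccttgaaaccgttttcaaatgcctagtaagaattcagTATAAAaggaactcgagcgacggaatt
col-178: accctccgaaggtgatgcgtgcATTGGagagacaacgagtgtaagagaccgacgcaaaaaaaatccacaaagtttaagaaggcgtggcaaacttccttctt

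Of the 4 bound genes, col-2 was the only one with CCAAT within 50 bp of the summit of the peak list, as the reverse complement ATTGG beginning 28 bp before the summit. Among all coding genes bound in the peak list, 19.5% had the box in that window around their strongest summit. The window of col-38 was the richest in G and C, at 53.5%, and those of the other 3 lay between 45.5 and 46.5%, where all bound coding genes had a median of 47.5%.

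The strongest region belonged to col-38 (WBGene00000615, II:8568035 to 8569088, minus strand), with a summit at II:8569524 in the peak list. Its signal value was 250 in the peak list, where it ranked 515 of 4098. In replicate 1 the signal value was 125 (rank 606 of 21476) and in replicate 2 it was 128 (rank 462 of 28596), so the region stood near the top of both lists, with summits 10 and 9 bp from the one of the peak list. The summit lay 436 bp upstream of col-38 and 403 bp upstream of rpl-5, a large ribosomal subunit protein gene that runs the opposite way from a start 839 bp away. It also lay inside 2 annotated non-coding RNA genes, F54C9.16 and F54C9.17.

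For col-2 (WBGene00000593, IV:10084439 to 10085451, minus strand) the summit was at IV:10085870, and the signal value in the peak list was 111, ranked 1989. The signal value was 51.1 in replicate 1 (rank 2407) and 60.8 in replicate 2 (rank 1637), again in the upper part of both lists. The summit lay 419 bp upstream of col-2 and 267 bp upstream of the divergent gene ndc-80, which encodes a kinetochore protein that attaches chromosomes to spindle microtubules. Both replicates also had their summit within 50 bp of the box.

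The third of these divergent promoters was that of col-71 (WBGene00000647, II:3500077 to 3502570, minus strand), with a summit at II:3502818 and a signal value of 84.0 in the peak list, ranked 2762. It had a signal value of 34.2 in replicate 1 (rank 3847) and 50.4 in replicate 2 (rank 2138). The summit lay 248 bp upstream of col-71 and 150 bp upstream of Y49F6B.2, and the 2 starts were 398 bp apart. In all 3 shared promoters the neighbour's start was the nearer, by 33 bp for col-38, 152 bp for col-2 and 98 bp for col-71. Which of the 2 genes a shared peak acts on was not tested.

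The only bound gene that shared its peak with no other coding start was col-107 (WBGene00000681, IV:1548721 to 1549714, plus strand), and its region was also the weakest of the 4. The summit at IV:1548602 lay 119 bp upstream of the start, with a signal value of 62.7, ranked 3812 of 4098. The signal value was 32.5 in replicate 1 (rank 4067) and 31.1 in replicate 2 (rank 3759), with summits 46 and 71 bp from that of the peak list, on opposite sides of it. At the summit of replicate 2, unlike the other summits, CCAAT stood within 50 bp, in 2 copies. This promoter lies inside the gene C34H4.5, which runs on the opposite strand, and the summit fell in an intron of it. The lowest signal value in the peak list was 58.2.

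Shared peaks were thus 3 of 4 among bound col genes (75%), against 933 of 2233 bound coding genes (41.8%). When each summit was given to its nearest coding start alone, only col-107 kept a peak, 1 of 156 col genes, against 8.9% of all coding genes. The median position of the summit relative to the start was -334 bp for the bound col genes and -192 bp for all bound coding genes. The strongest signal values at bound col genes had a median of 97.6, against 110 over all bound coding genes. The share of shared peaks and both medians rest on 4 bound col genes, too few to read as differences from coding genes in general.

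**Figure D2:**
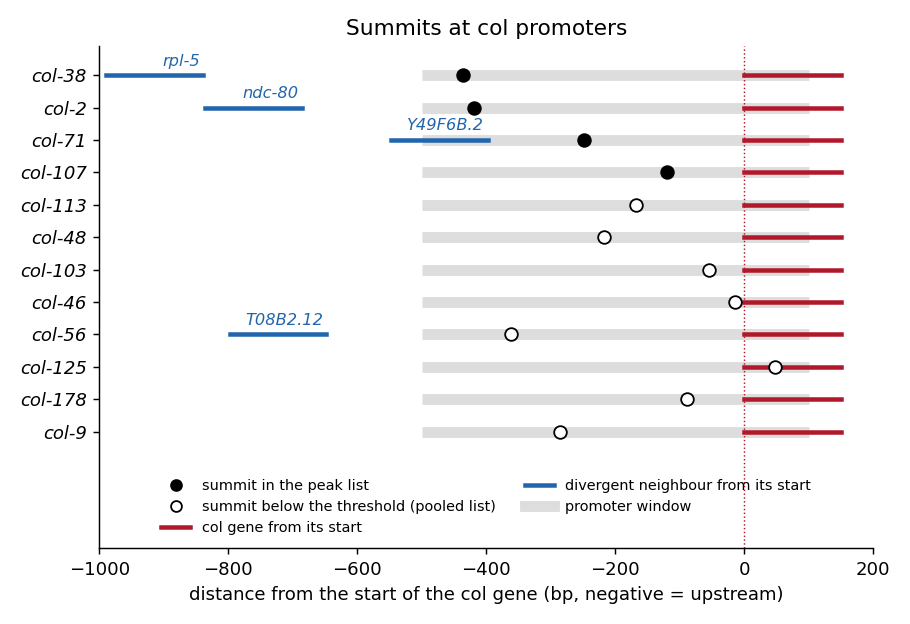
Position of the summit at each of the 12 col genes bound in the pooled list, in bp from the nearest start of the col gene, with filled circles for summits in the peak list and open circles for those below its threshold. The grey bar is the promoter window, and the blue line is the divergent neighbour whose promoter also holds the summit. The 3 strongest summits, at col-38, col-2 and col-71, lie between the col gene and a neighbour that starts 839, 686 and 398 bp away.

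The other 8 genes of the pooled list carried regions that did not pass the reproducibility analysis. The strongest of them was col-113, with a signal value of 44.9 (rank 5398 of 15515) and a summit 168 bp upstream of a start. It ranked 5166 in replicate 1 (signal value 26.6) and 11122 in replicate 2 (14.4), and the summits of the 2 replicates lay 178 and 67 bp upstream. The region of col-48 had a signal value of 40.3 (rank 6105), with the replicates the other way round, at rank 13241 in replicate 1 (14.9) and rank 4799 in replicate 2 (25.1). Its promoter lies inside mek-2, a MAP kinase kinase gene of the Ras pathway on the opposite strand.

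The region of col-103 was the steadiest in position: its signal value was 36.9 in the pooled list (rank 6786), 15.8 in replicate 1 (rank 11891) and 14.9 in replicate 2 (rank 10444), and the summit fell on the same base, 54 bp upstream of the start, in all 3. The printed window shows both a CCAAT box and, 30 bp upstream of the start, a TATAAA element on the gene's own strand. At col-46 the summit lay 15 bp upstream of the start and within a coding exon of its neighbour col-47, with a signal value of 30.3 (rank 9034). It ranked 5949 in replicate 1 (23.9) but 25813 in replicate 2 (8.88), near the end of that list.

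The remaining 4 were col-56 (signal value 27.7), col-125 (27.0), col-178 (25.8) and col-9 (23.8), at ranks from 10473 to 13959 in the pooled list. Of these, col-56 shared its region with the divergent gene T08B2.12, whose start was 74 bp nearer to the summit of the pooled list, though in replicate 2 the summit was nearer to col-56. The promoter of col-9 lies inside unc-84, which encodes a nuclear envelope protein that anchors nuclei. No region stood at the promoter of col-125 or col-178 in the list of replicate 1, nor at that of col-9 in the list of replicate 2. CCAAT stood within 50 bp of the summit at col-103, col-46, col-178 and col-9, that is at 4 of the 8, against 18.5% of the 2493 coding genes bound in the pooled list alone. That share rests on 8 genes with weak regions, col-178 and col-9 had a region in 1 replicate only, and the difference was not tested.

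These regions were weak by the caller's own measure. The deposited −log10 q-value had a median of 0.182 over the 8 genes, against 0.302 over the 2493. The 4 genes of the peak list had values from 1.92 to 2.79, but that list holds the regions of highest signal value. A gap to those 4 genes is thus built into the threshold. The median rank of the 8 genes was 9753.5 of 15515, against 8187 over the 2493. Of col genes bound in the pooled list, 4 of 12 (33.3%) were also in the peak list, against 47.2% of coding genes.

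**Figure D3:**
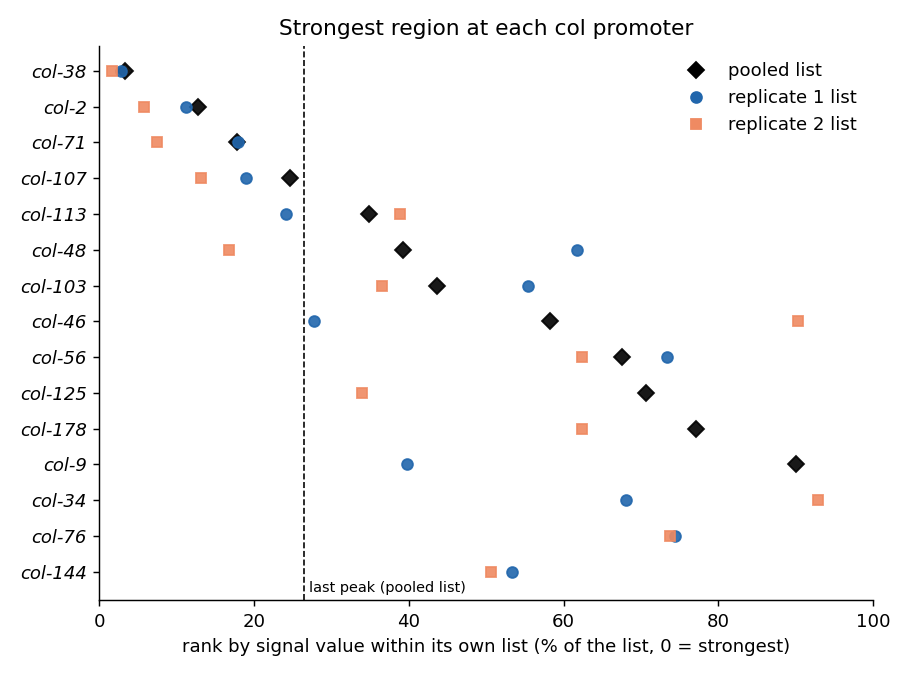
Rank of the strongest region at each promoter, as a percentage of its own list (0 is the strongest), for the 12 col genes bound in the pooled list and the 3 found in both replicates only. Diamonds are the pooled list, circles replicate 1 and squares replicate 2, and the dashed line marks the last peak within the pooled list. The line applies to the diamonds only, and those of col-38, col-2, col-71 and col-107 alone lie left of it. The symbols of the other genes spread from 16.8 to 92.9%, and those of col-113 in replicate 1 (24.1%) and col-48 in replicate 2 (16.8%) also lie left of the line.

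The replicates shared fewer col genes than coding genes in general. Of the 25 col genes bound in replicate 1, 12 (48.0%) were also bound in replicate 2, which is 44.4% of the 27 there. Over all coding genes 4060 were bound in both, which is 76.6% of the 5302 in replicate 1 and 65.4% of the 6210 in replicate 2. The 3 genes bound in both replicates but not in the pooled list were col-144, col-34 and col-76. Their signal values were 16.1, 14.2 and 13.5 in replicate 1 and 12.5, 8.73 and 10.1 in replicate 2, and at col-144 and col-76 the summits of the 2 replicates were on different parts of the promoter.

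The col genes found in a single replicate sat low in its list. In replicate 1 the 13 such genes ranked from 8539 to 21378, and in replicate 2 the 15 such genes ranked from 8797 to 27365, none among the 4098 strongest regions of either list. Few of all coding genes found in a single replicate were there either, 72 of 1242 in replicate 1 (5.8%) and 63 of 2150 in replicate 2 (2.93%). Their median ranks were 13052 and 15694, against 15229 and 19611 for the col genes of this kind. The median rank of a bound col gene was 12131 in replicate 1 and 16650 in replicate 2, against 5673.5 and 6716 over all bound coding genes. In all, 116 of the 156 col genes had no summit at a promoter in any of the 4 lists. The same count over all coding genes was not made, so the 116 cannot be read as more or fewer than usual. Most coding genes were also unbound in each single list, with at most 31.1% bound, in replicate 2.

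Promoters were also counted by whether another gene starts close by. The promoter windows of 27 col genes (17.3%) overlapped that of another coding gene, against 21.1% of all coding genes, and for 4 of the 27 the only such genes were other col genes. In the peak list 3 of these 27 were bound (11.1%, interval 3.85 to 28.1), against 25.6% of all coding genes with an overlapping window. Of the 129 col genes whose window overlapped no other, 1 was bound (0.775%, interval 0.137 to 4.26), against 7.33% of coding genes of that kind. The counts in the pooled list were 4 of 27 (14.8%, interval 5.92 to 32.5), against 40.5%, and 8 of 129 (6.2%, interval 3.18 to 11.8), against 19.2%. Col genes were below the coding genes of their own class in all 4 of these comparisons, but the interval for overlapping windows in the peak list reached above the share of all coding genes.

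**Figure D4:**
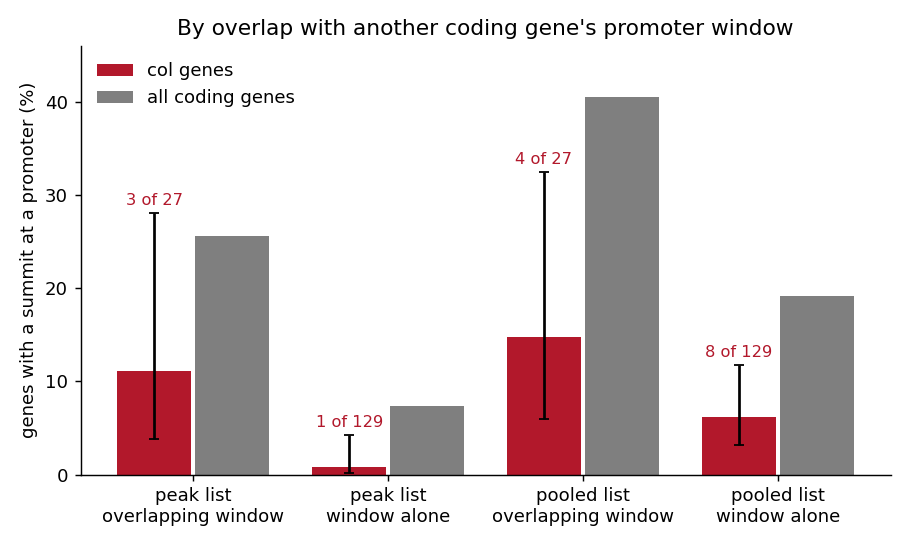
Percentage of col genes (red, with 95% Wilson intervals and counts) and of all coding genes (grey) with a summit at a promoter, split by whether the promoter window overlaps that of another coding gene. The 129 col genes with a window of their own stand at 0.775% in the peak list and 6.2% in the pooled list.

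The 4 bound genes lay on 2 chromosomes, 2 of the 24 col genes of II, against 9.83% of all coding genes there, and 2 of the 41 of IV, against 10.6%. On V the count was 0 of 31, and by a floor of 3 counts the share could be as high as 9.68%, against 6.93% of all coding genes there. On X it was 0 of 27 (up to 11.1%), against 9.85%, on I 0 of 21 (up to 14.3%), against 16.7%, and on III 0 of 12 (up to 25%), against 17.1%. On II the share of col genes was near that of all coding genes, and on V, X and III the counts are too small to show a share below that of all coding genes. Another col gene lay within 5000 bp of 50 of the 156 (32.1%), and 0 of these 50 were bound in the peak list (up to 6% by the floor), against 11.2% of all coding genes, and 3 in the pooled list, against 23.7%. The distance from a start to the nearest summit of the peak list had a median of 13538 bp for col genes, with the middle of the distribution between 5769 and 23848 bp, against 9719 bp for all coding genes, between 2877 and 23219 bp. A summit of the peak list lay within 1000 bp of a start of 9 col genes (5.77%), against 15.1% of all coding genes.

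Peaks also lay close to or inside col genes without reaching their promoters. The peak 862 bp upstream of col-8 (signal value 89.7, rank 2560) was at the promoter of rfl-1, the gene of an E1-like enzyme of the neddylation pathway, with its summit 423 bp from that start. The peak 870 bp upstream of col-185 had a signal value of 135 (rank 1511). Inside the genes themselves, summits of the peak list stood in introns of col-52, col-72, col-85 and col-99 and in an untranslated part of col-87, that is in 5 of 156 col genes (3.21%), against 5.38% of all coding genes. The pooled list had a summit inside 16 of 156 col genes (10.3%), against 22.6%. Of its summits there, 10 lay outside the promoter of the gene that holds them and were not in the peak list, with signal values from 24.2 to 35.3, all below that of col-113. The one in col-47 is the summit counted at the promoter of col-46.

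Of the 5 col genes with a peak inside, most were longer ones. Col genes had a median length of 1220 bp, against 2027 bp for all coding genes, and 4 of the 5 with a peak inside were among the 23 col genes over 2000 bp. In that length class 4 of 23 (17.4%) held a peak, against 9.49% of coding genes, and among shorter genes 1 of 133 (0.752%), against 1.17%. The exception was col-85, of 1393 bp. The pooled list had a summit inside 6 of the 23 (26.1%), against 35.5%, and inside 10 of the 133 (7.52%), against 9.25%. Only in the peak list were the longer col genes above the coding genes of their class, by a count of 4 that is too small to read as a difference.

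A tRNA gene stood at 4 of these 8 summits in or near col genes. At col-72 the summit 2620 bp into the gene (II:3521560, signal value 122) was 2 bp upstream of WBGene00023160 and also in the promoter of the coding gene W09G10.9, 240 bp from its start. At col-85 the summit 368 bp downstream of the start (II:12494727, 225) was 14 bp upstream of WBGene00014524. At col-99 the summit (IV:144035, 161) lay 53 bp into WBGene00023019, and at col-185 the summit (X:13511967, 135) lay 74 bp from the start of WBGene00014413, just past its end. Each was found in both replicates, at ranks 497 to 1620 in replicate 1 and 940 to 1981 in replicate 2. A summit within 500 bp upstream to 100 bp downstream of one of the 612 nuclear tRNA genes was seen for 152 of the 4084 nuclear peaks (3.72%), and for 129 of the 2272 away from coding promoters (5.68%).

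The 101-bp windows around these 4 summits are printed in the direction of the tRNA gene, with its bases in capitals, from WBcel235 as above. None of them holds CCAAT. They are chrII:3521510-3521610 (minus strand), chrII:12494677-12494777 (plus strand), chrIV:143985-144085 (plus strand) and chrX:13511917-13512017 (minus strand), named by the col gene.
col-72: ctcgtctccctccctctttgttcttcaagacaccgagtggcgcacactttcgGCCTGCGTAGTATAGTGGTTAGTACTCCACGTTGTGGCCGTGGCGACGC
col-85: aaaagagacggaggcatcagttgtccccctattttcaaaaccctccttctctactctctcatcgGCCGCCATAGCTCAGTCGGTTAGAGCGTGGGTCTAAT
col-99: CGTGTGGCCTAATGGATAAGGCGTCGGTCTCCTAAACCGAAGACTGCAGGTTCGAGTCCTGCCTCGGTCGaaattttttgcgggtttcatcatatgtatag
col-185: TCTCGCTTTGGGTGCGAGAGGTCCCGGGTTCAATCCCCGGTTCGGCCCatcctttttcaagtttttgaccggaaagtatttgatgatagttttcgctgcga

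A tRNA gene lies inside 4 col genes, col-54, col-72, col-85 and col-99 (2.56%), against 231 coding genes (1.16%). A summit of the peak list lay in that same window around the tRNA gene, not always inside it, in 3 of the 4, against 72 of the 231, and one of the pooled list in 4 of the 4, against 127 of the 231. The peaks without a tRNA gene were those of col-52 (signal value 159), the second of col-72 (110), col-87 (330) and col-8. The peak of col-87, the strongest in any col gene, ranked 287 in the peak list, 355 in replicate 1 and 249 in replicate 2, and held 2 CCAAT boxes within 50 bp of the summit, as did that of col-52. Whether any of these peaks touches the collagen genes around them was not tested.

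The CCAAT box itself was not scarce in col promoters. In the 601 bp from 500 bp upstream to 100 bp downstream of the most upstream start, 120 of 156 col genes held CCAAT on either strand (76.9%, interval 69.7 to 82.8), against 71.8% of all coding genes and 68.3% of coding genes bound in the peak list. Among col genes with the box there, 3 of 120 were bound in the peak list (2.5%) and 11 of 120 in the pooled list (9.17%). Among those without it 1 of 36 was bound in each (2.78%). Bound still means a summit at any start, so in genes with several starts the box and the summit can lie at different promoters. A single start was annotated for 87.2% of col genes and 73.7% of all coding genes. For all coding genes the shares were 10.6% with the box and 12.5% without it in the peak list, and 22.5% with it and 26.5% without it in the pooled list. In the pooled list the col genes with the box thus had the higher share, and all coding genes with the box the lower one, with only 1 bound col gene lacking it. By 100-bp steps, col promoters held the box most often in the step from -300 to -200 bp (24.4%, against 19.4% of all coding genes). Only col-69 had a pair of boxes on the same strand 32 bp apart, beginning 35 and 67 bp downstream of its start, against 55 of 19973 coding genes, and no list had a summit at its promoter.

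Of the 4 motifs searched, the one with the widest gap between col genes and all coding genes was TATAAA, the core of the TATA box. Within 100 bp upstream of the start, 87 of 156 col promoters held it on either strand (55.8%), against 19.8% of all coding genes, while in each 100-bp step farther upstream the 2 shares were within 3 percentage points of each other. Over the whole promoter the shares were 75.6% (interval 68.3 to 81.7) for col genes and 58% for all coding genes, and coding genes bound in the peak list held it in 51.6% of cases. GATAA, the core of sites for GATA factors such as those of the worm epidermis, was in 83.3% of col promoters and 80% of all. CGCGC was in 28.2% of col promoters and 24.1% of all, against 51.9% of coding genes bound in the peak list and 3 of the 4 bound col genes. None of the 4 motifs holds another, and a match is a description of the letters, not of a working site. The median GC content of the promoters was 37.2% for col genes and 34.6% for all coding genes.

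**Figure D5:**
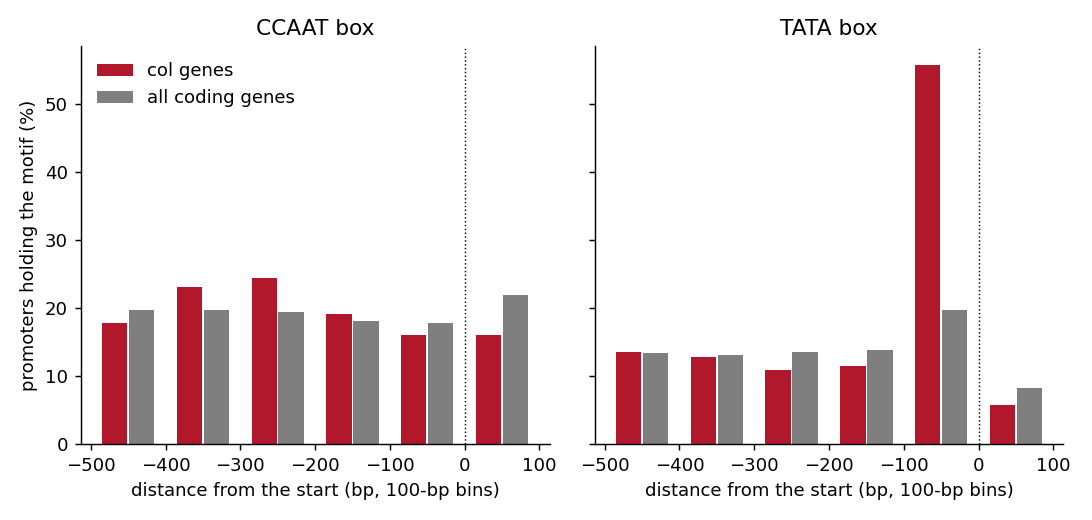
Percentage of promoters with the CCAAT box (left) and the TATA box (right) in each 100-bp bin from 500 bp upstream to 100 bp downstream of the most upstream start, for col genes (red, n = 156) and all coding genes (grey, n = 19973). The TATA box reaches 55.8% of col promoters in the bin just upstream of the start, and the CCAAT box stays between 16 and 24.4% throughout.

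Other genes of the cuticle were counted in the same way, in lists picked from general knowledge but with earlier results of these data known. Their shares are to be read against 11.2% of all coding genes in the peak list and 23.7% in the pooled list. Of 19 cuticle collagens named by their mutant phenotype, dpy-17 alone was bound in the peak list (5.26%), with a signal value of 58.4 at rank 4077, near its end. The pooled list held 6 of the 19 (31.6%), led by dpy-17, dpy-10 (51.8) and dpy-14 (42.8), none of which shared its region. Of 4 other collagens, 0 were bound in the peak list (interval 0 to 49%) and 2 in the pooled list, the basement membrane genes let-2 (signal value 31.2), of the type IV family, and cle-1 (30.2).

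Enzymes that act on collagen included the strongest peak of any gene in these lists. Of 14 folding, processing and crosslinking genes, 2 were bound in the peak list (14.3%). They were pdi-2, the disulfide isomerase that is also a subunit of collagen prolyl 4-hydroxylase (signal value 2478, rank 8), and pdi-1 (120), a further disulfide isomerase, whose peak was shared with C14B1.2. The pooled list held 6 of the 14 (42.9%), the strongest below the threshold being the moulting peroxidase gene mlt-7 (50.5). Of 16 other genes of the cuticle and apical matrix, lpr-3 (116), a lipocalin, and let-4 (74.5), a leucine-rich repeat protein, were bound in the peak list, both with CCAAT within 50 bp of the summit. The pooled list held 5 of the 16, the next being noah-1 (54.2).

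Of 14 regulators of the epidermis and of moulting, myrf-1, a membrane-bound transcription factor needed for moulting, was bound in the peak list (signal value 183, rank 939). Its peak held 0 CCAAT boxes within 50 bp of the summit, as did those of dpy-17 and pdi-1, while that of pdi-2 held 2. The pooled list held 5 of the 14, with nhr-25 (56.0) and rnt-1 (46.3) next. Over all 5 lists 6 of 67 genes were bound in the peak list (8.96%), against 11.2% of all coding genes, and 24 of 67 in the pooled list (35.8%), against 23.7%. The share of the 67 genes was near that of all coding genes in the peak list and above it in the pooled list. In the peak list the interval of each of the 5 lists held 11.2%, for example 0.935 to 24.6% for the 19 collagens. That interval also held the 2.56% of col genes, so the peak list does not tell these collagens from col genes. The intervals of the other collagens (0 to 49%) and the regulators (1.27 to 31.5%) held 2.56% too. Those of the collagen enzymes (4.01 to 39.9%) and of the other matrix genes (3.5 to 36%) did not. The col genes, at 2.56 and 7.69%, were below both the 67 genes and all coding genes in each list.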

How the data were processed

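Peak lists in build ce11 were used, which per the listings deposited with them are narrowPeak files derived from 1 replicate's alignments, or those of both, and from 1 more file, which the control-normalized signal tracks were derived from too. The signal value and the −log10 q-value of each region are the authors' deposited values; no source used here states the aligner, the peak caller or the thresholds. The ce10 copies and control data were not used here. Lists were called per replicate and on pooled replicates, so a signal value was read only within its list.

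All computation was in Python 3.11.15 with scipy 1.17.1. Genes and their 29314 coding transcript starts came from Ensembl release 115 (WBcel235, the ce11 assembly), and every region ended within its chromosome. A summit is the region's start plus its summit offset, printed 1-based, and it counts for every coding gene whose promoter holds it; the 14 mitochondrial peaks count for none. Motifs were searched on both strands of RefSeq's WBcel235 sequence. Assignment and motif search were tested on simulated data.

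No test was made. The members, lists, promoter and comparisons were chosen with earlier results of these data known. The rule for named genes took every col gene bound in the peak or pooled list, genes sharing those summits, col genes with a peak within 1000 bp of a start, the strongest members of the other lists and col genes with paired boxes. Genes with a peak in the body, col genes found in both replicates alone, tRNA genes, overlapping promoters and motifs other than CCAAT were added after values were seen. Alternatives were other promoter windows, nearest or most upstream starts, region overlap, the upper 50% of regions and each replicate's strongest regions alone.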

Additional observations from a re-analysis of the deposited data

How the results depend on the processing

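The number of col genes bound in the peak list was 2 with a promoter of 250 bp upstream to 50 bp downstream (col-71 and col-107; 7.28% of all coding genes), 1 with each summit given to the nearest start alone (8.9%) and 2 when only the stronger 50% of the list was kept (col-38 and col-2; 5.68%). It was 6 with 1000 bp upstream to 200 bp downstream (14.1% of all coding genes), 4 with the most upstream start alone (10.3%) and 4 with any overlap of the region (12.5%). The same 4 genes were bound in the 4098 strongest regions of replicate 2 alone (11.4%) and of replicate 1 alone (10.5%). In the pooled list the number was 22 with the wider promoter (31% of all coding genes) and 7 in its stronger 50% (17%); leaving out a replicate gave from 11 to 17. Membership moved more than the count: without replicate 1, 8 of the 11 genes were among the 12 (23.4% of all coding genes bound), and without replicate 2, 9 of the 17 (22.5%). The share of col genes below that of all coding genes held under every alternative run on both lists. The share of col promoters with CCAAT was 48.7% in the shorter window (45.7% of all coding genes) and 94.2% in the wider one (92.5%), since a longer window holds more boxes. The median distance to the nearest summit was 3799 bp for the pooled list, which holds more regions, and from 13031 to 14488 bp with a replicate left out. With peak lists alone, a weak region cannot be told from a shallow library, since depth is unknown.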
